A study of Oryza sativa Indica Group and Oryza sativa Japonica Group with 20 samples.

Results

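Coincident regions were stretches of the rice genome in which male meiocytes carried a called domain of H3K27me3 and a called domain of H3K4me3 of about the same extent. They were chosen from the peak positions alone. For each cultivar and mark, the peaks of both meiocyte replicates on chromosomes 1 to 12 were merged, and merged regions that held a peak of each replicate were kept and called reproducible. A coincident region was a reproducible H3K27me3 region whose overlap with a reproducible H3K4me3 region covered at least 50% of the length of both. By this rule 2744 of 8219 reproducible H3K27me3 regions were coincident in IR64 and 3473 of 14872 in Azucena, 6217 of 23091 over both cultivars.

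H3K4me3, trimethylation of lysine 4 of histone H3, is found at the start of active and poised genes. H3K27me3, trimethylation of lysine 27, is placed by Polycomb repressive complexes and in plants typically covers silent developmental genes. Domains that hold both marks are known as bivalent where the same nucleosomes carry them, a state described at developmental regulators in animals and in plants and studied for its part in keeping genes silent but ready for use.

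The cells were wild-type meiocytes of IR64, an indica cultivar, and of Azucena, a japonica cultivar, at prophase of the first meiotic division. They were pushed out of opened anthers as callose-bound clusters and picked with glass capillaries, which per the labels left somatic cells behind. CUT&Tag, in which an antibody directs a transposase to chromatin, was done with antibodies against H3K4me3 (Abcam) and H3K27me3 (Diagenode), with 2 libraries per mark and cultivar and 8 in all. The labels do not say that replicates came from separate plants, so the spread between them may be technical. Peak lists give no expression, so the identity of the cells could not be checked against marker genes. Genes were not assigned, because an annotation of either assembly was not used here. Each library came from many cells, and regions where single cells carry both marks cannot be told apart from regions where some cells carry one mark and some cells the other.

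The depth of the libraries was even with 1 exception. Per the authors' table, 9.22 to 13.71 M uniquely aligned reads (M, 1000000 reads) stood behind the 4 H3K4me3 libraries and 10.11 and 10.28 M behind the Azucena H3K27me3 libraries. The IR64 H3K27me3 libraries had 47.91 and 9.0 M. The lists nevertheless held similar coverage within each pair. The floor, the lowest background coverage behind any peak of a library, was 2.40 and 1.85 reads in the IR64 H3K27me3 libraries and 6.08 and 5.90 reads in those of Azucena. In the H3K4me3 libraries it was 7.71 and 7.01 reads in IR64 and 6.28 and 6.58 reads in Azucena. IR64 H3K27me3 thus rested on the lowest coverage of all.

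Coincident regions made up 33.4% of the reproducible H3K27me3 regions of IR64 (95% Wilson interval 32.4 to 34.4) and 23.4% of those of Azucena (22.7 to 24.0). The same regions were 9.29% of 29541 reproducible H3K4me3 regions in IR64 (8.96 to 9.63) and 12.8% of 27223 in Azucena (12.4 to 13.2). The intervals cover counting error only. The lower Azucena share of H3K27me3 went with a longer H3K27me3 list. When the same number of regions of each mark was kept in both cultivars, those of highest mean fold, a limit chosen after the data were seen, the shares were 32.3% in IR64 and 30.1% in Azucena. Whether list length accounts for the difference was not tested. The IR64 share also rested on the demand for both H3K27me3 replicates: without replicate 1 or replicate 2 of H3K27me3 it was 25.8% and 22.1%, and 20.8% and 19.8% in Azucena. Of the other H3K27me3 regions, 977 in IR64 and 1621 in Azucena overlapped H3K4me3 by less than the rule asked, 466 and 947 lay within 1000 bp of an H3K4me3 region without overlapping it, and 4032 and 8831 lay farther away. Partial overlap (11.9% and 10.9%) was rarer than coincidence or clear separation in both cultivars.

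The share of called peaks that lay in coincident regions was then compared between the cultivars, library by library. Coincident regions needed a peak of both replicates, so the replicates share the same regions and are not independent measures of this share. In IR64, 2769 of 12629 and 2822 of 10134 H3K27me3 peaks lay in them, so these shares differ mostly through list length. The SD and the test below do not measure how coincidence itself varies between replicates. Of the H3K27me3 peaks, 21.9% and 27.8% lay in coincident regions in the IR64 replicates and 20.4% and 20.0% in those of Azucena. The means were 24.9% ± 4.19 and 20.2% ± 0.284 (SD, n = 2 each). Of the H3K4me3 peaks, 8.03% and 8.32% did so in IR64 and 11.7% and 11.4% in Azucena, with means of 8.18% ± 0.207 and 11.5% ± 0.223 (SD, n = 2 each). The cultivars did not overlap in either mark, with IR64 above Azucena in H3K27me3 and below it in H3K4me3. The two-sided exact permutation p was 0.333 for each mark, the smallest that 6 relabellings of 2 against 2 libraries allow, and 0.5 after adjustment over 6 measures. In H3K27me3 the IR64 replicates differed from each other by more than the nearest libraries of the cultivars did. The direction of the H3K4me3 difference reversed among peaks of at least 4-fold enrichment, where IR64 was 0.772 percentage points above Azucena. With equal numbers of regions kept, IR64 minus Azucena was 9.79 percentage points for H3K27me3 and -0.273 for H3K4me3. These were still counted over the full peak list of each library.

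The marks peaked close together, but in single libraries not as close as the replicates of either mark. The summit is the base of highest coverage in a peak. With the summits of the replicates averaged, the distance between the H3K27me3 and the H3K4me3 summit had a median of 143.5 bp in IR64 (interquartile range 53.9 to 295 bp) and of 134.5 bp in Azucena (53.0 to 302 bp). It was at most 50 bp in 644 regions of IR64 (23.5%) and in 832 of Azucena (24.0%), and at most 200 bp in 62.7% and 63.1%. Averaging shortens such distances, so single libraries are the fair measure to set beside replicates.

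In single libraries the distance between marks had a median of 171.5 bp in replicate 1 and 176 bp in replicate 2 of IR64, and of 161 and 154 bp in Azucena. The same regions gave medians of 145 bp between the H3K27me3 replicates and 123 bp between the H3K4me3 replicates in IR64, and of 104 and 133 bp in Azucena. At the median, summits of different marks lay farther apart than those of the replicates of either mark, in both cultivars. Pairs with replicate numbers crossed between the marks gave 160 to 182 bp. In the regions of partial overlap, which the rule leaves out, the distance between the mean summits was larger, with medians of 355 bp (IR64) and 320.5 bp (Azucena). The rule limits how far apart summits can lie, so these distances describe the regions and are not tested.

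**Figure D1:**
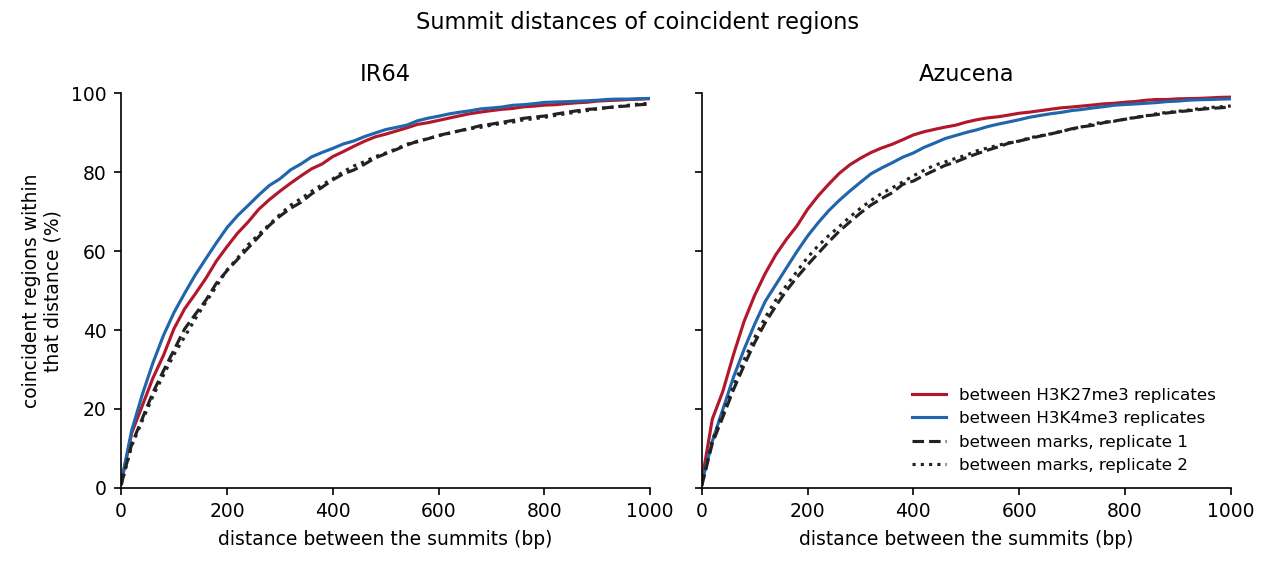
Share of coincident regions (vertical axis, percent) whose summits lay within a given distance (horizontal axis, bp), in IR64 (2744 regions, left) and Azucena (3473 regions, right). Solid lines compare the replicates of one mark, red for H3K27me3 and blue for H3K4me3, and the broken black lines compare the marks within replicate 1 or 2; at 200 bp the black lines stand at 55.1% and 55.2% in IR64 and 56.5% and 58.4% in Azucena, below the solid lines at 61.2% and 66.0% and at 70.6% and 63.8% (red and blue).

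Neither mark lay on a fixed side of the other along the chromosome. The H3K27me3 summit was to the left of the H3K4me3 summit in 1335 regions and to the right in 1400 of IR64, and in 1729 and 1740 of Azucena. Transcription strand was not used here, so an offset along the direction of genes was not measured. Both summits lay inside the shared stretch in 94.6% of the IR64 and 95% of the Azucena regions. In 93.3% and 94.7% of the regions every library had called a single peak, and there the median distance between the mean summits was 138 and 127.5 bp. It was 338.5 and 388 bp in the few regions where a library had called several peaks.

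Both marks covered about 1 kb, and their borders lay close together. In IR64 the H3K27me3 region was 1049 bp wide at the median and its H3K4me3 partner 998 bp, and in Azucena the widths were 1168 and 1024 bp. At the median the shared stretch spanned 855 bp (IR64) or 909 bp (Azucena). H3K27me3 was the wider mark in 55.7% of the regions of IR64 and in 67.5% of those of Azucena, with median width ratios of 1.04 and 1.14. The left borders of the marks were 116 bp apart in IR64 and 129 bp in Azucena at the median, and the right borders 122 and 127 bp.

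Where one domain held the other entirely, it was more often H3K27me3 that reached out on both sides. The H3K4me3 region lay inside the H3K27me3 region in 808 regions of IR64 (29.4%) and in 1459 of Azucena (42.0%). The reverse was seen in 635 (23.1%) and 554 (16.0%). Overlap covered at least 90% of both marks in 481 regions of IR64 (17.5%) and 590 of Azucena (17.0%). Wide H3K4me3 went with wide H3K27me3, with a Spearman rho of 0.67 over the 2744 regions of IR64 and 0.71 over the 3473 of Azucena. The requirement of mutual overlap forces widths to be alike, so this relation is a property of the choice.

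Coincident regions stood above the other H3K27me3 regions in H3K27me3 fold enrichment, with regions of partial overlap in between. By the highest peak of each region, median folds at partial overlap were 4.18 and 4.25 in the IR64 replicates. They were 4.70 and 4.78 at coincident regions and 4.04 and 4.13 without overlap. In Azucena these values were 3.85 and 4.00, 4.12 and 4.37, and 3.40 and 3.50. Fold enrichment is the authors' ratio of the coverage at the summit to the local background. In IR64 the median fold of H3K27me3 peaks at coincident regions was 4.70 in replicate 1 and 4.73 in replicate 2, against 4.02 and 4.09 at reproducible H3K27me3 regions that did not overlap H3K4me3. In Azucena it was 4.09 and 4.35 against 3.39 and 3.48. Each H3K27me3 library showed the higher fold at coincident regions. Median H3K27me3 summit coverage in IR64 replicate 1 was 29.0 reads both at coincident regions and without overlap. In replicate 2 it was slightly higher at coincident regions. In Azucena it was lower there in both replicates, at 53.0 against 57.0 reads in replicate 1. The median H3K27me3 local background was lower at coincident regions, at 4.86 and 4.01 against 5.71 and 4.74 reads in IR64. In Azucena it was 10.6 and 10.5 against 14.4 and 13.8 reads. The fold of H3K4me3 peaks was 4.13 and 3.83 at coincident regions of IR64 against 3.66 and 3.47 at H3K4me3 regions without H3K27me3, but 3.85 and 3.83 against 3.82 and 3.8 in Azucena. H3K4me3 fold at coincident regions was higher than at H3K4me3 regions without H3K27me3 in IR64 and nearly level with them in Azucena. Median H3K4me3 summit coverage was lower at coincident regions, at 43.0 and 36.0 reads against 48.0 and 42.0 reads in IR64. In Azucena it was 34.0 and 35.0 reads against 42.0 and 43.0 reads.

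Peak width was larger at coincident regions for H3K27me3 but not for H3K4me3. H3K27me3 peaks at coincident regions had median widths of 935 and 816 bp in the IR64 replicates, against 705 and 631 bp at regions without H3K4me3, and of 1040 and 1060 bp against 795 and 750 bp in Azucena. H3K4me3 peaks were 907 and 851 bp wide against 903 and 860 bp in IR64, and 867 and 892 bp against 879 and 900 bp in Azucena. H3K27me3 peaks that coincided with H3K4me3 were wider than those clear of it in every library, while the H3K4me3 peaks differed in width from other H3K4me3 peaks by little and in both directions. The width was not particular to coincidence. At the median the highest H3K27me3 peak of a region was 1046 and 1066 bp wide in the Azucena replicates at coincident regions and 1235 and 1161 bp at regions of partial overlap, and in IR64 it was 940 and 834 bp against 842 and 767 bp. How far the overlap rule itself favours wide regions was not tested.

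**Figure D2:**
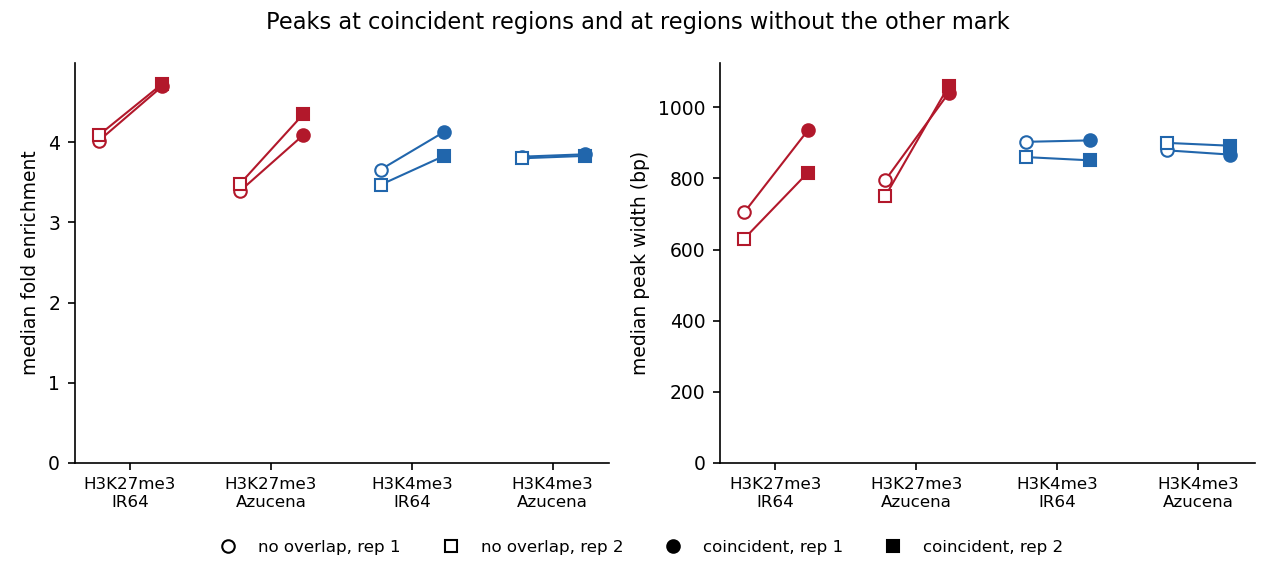
Median fold enrichment (left, ratio) and median peak width (right, bp) of the peaks of each library at coincident regions (filled) and at reproducible regions without the other mark (open), for H3K27me3 (red) and H3K4me3 (blue); circles are replicate 1 and squares replicate 2. Lines join the values of a library, and they rise for H3K27me3 in both measures and both cultivars, while H3K4me3 widths stay level.

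The ratio of the fold at coincident regions to the fold at regions without the other mark was set side by side in the cultivars. Replicates of a cultivar share the same regions, so they are not independent measures of this ratio or of the width ratio. The SD and the tests below do not measure how the choice of regions varies between replicates. For H3K27me3 it was 1.17 and 1.15 in the IR64 replicates and 1.21 and 1.25 in those of Azucena, with means of 1.16 ± 0.0110 and 1.23 ± 0.0295 (SD, n = 2 each). For H3K4me3 it was 1.13 and 1.10 in IR64 and 1.01 and 1.01 in Azucena, with means of 1.11 ± 0.0165 and 1.01 ± 0.000314 (SD, n = 2 each). Libraries of the cultivars did not overlap in either mark. The two-sided exact permutation p was 0.333 each, the smallest possible, and 0.5 after adjustment. For H3K27me3 the direction was not kept when equal numbers of regions were compared, where IR64 exceeded Azucena by 0.0863. The width ratios overlapped between the cultivars, at 1.31 ± 0.0234 and 1.36 ± 0.0744 for H3K27me3 and 0.997 ± 0.0105 and 0.989 ± 0.00337 for H3K4me3 (SD, n = 2 each, exact permutation p 0.667 each).

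The folds of the marks rose together only weakly from region to region. Across regions the Spearman rho between mean H3K27me3 and mean H3K4me3 fold was 0.30 in both cultivars, while replicates of a mark gave 0.77 and 0.76 for H3K27me3 and H3K4me3 in IR64 and 0.90 and 0.74 in Azucena. Regions of partial overlap gave a rho of 0.03 in IR64 (977 regions) and -0.03 in Azucena (1621 regions). In all of these, the points share the libraries they were read from. Regions in the top 10% of both marks' folds, at or over the 90th percentile of all reproducible regions of each mark, numbered 153 in IR64 (5.58% of the coincident regions) and 109 in Azucena (3.14%). Their summits were closer, with a median distance of 38.5 bp (IR64) or 56.5 bp (Azucena), and 56.2% and 42.2% of them had summits within 50 bp. Regions at or under the 50th percentile in both marks numbered 475 and 702, with median distances of 134 and 135 bp.

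**Figure D3:**
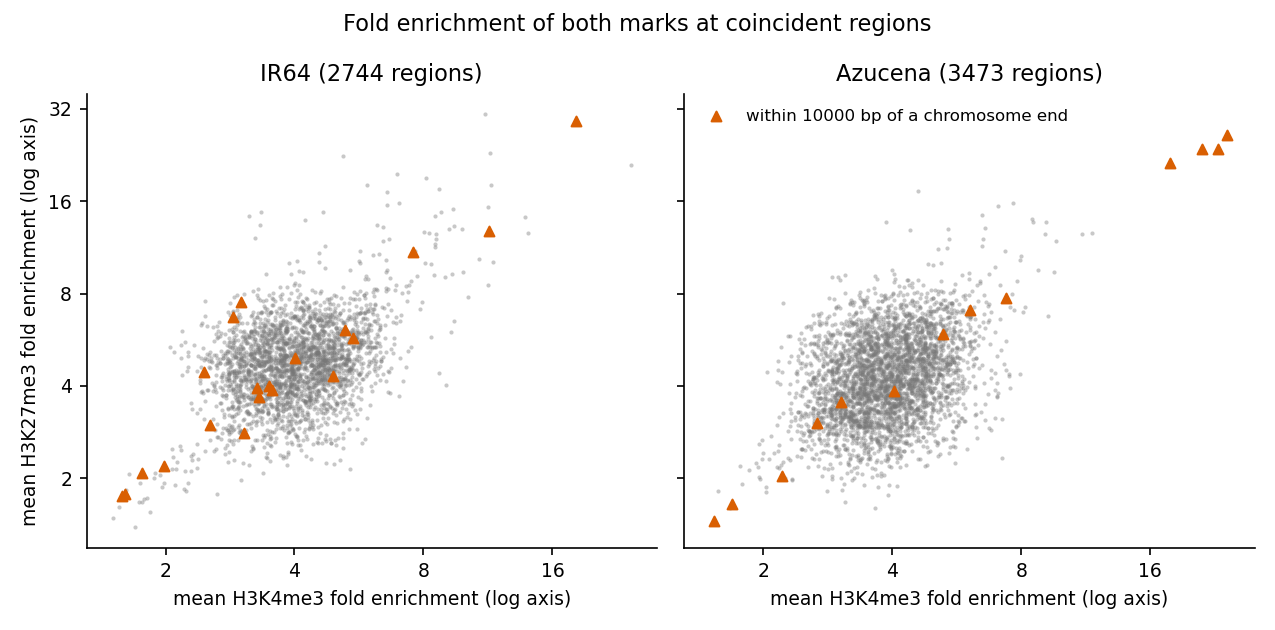
Mean fold enrichment of H3K27me3 (vertical axis) against that of H3K4me3 (horizontal axis, both log axes, mean of 2 replicates) at the coincident regions of IR64 (left) and Azucena (right), with triangles for regions within 10000 bp of a chromosome end. The bulk forms a round cloud near a fold of 4 in both marks (Spearman rho 0.30 in each cultivar), with thin tails at its lower left and upper right, and 4 Azucena triangles lie at the top right corner.

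The 3 IR64 regions described first were shorter than most coincident regions and had closely aligned summits. In IR64 the region of chromosome 9 from 1723128 to 1723870 had H3K27me3 folds of 19.7 and 22.2 and H3K4me3 folds of 24.1 and 24.7 in its replicates, with mean summits 1.50 bp apart. The region of chromosome 7 from 7 to 422, at the first bases of the chromosome, had folds of 29.1 and 29.5 for H3K27me3 and of 16.1 and 20.3 for H3K4me3. The region of chromosome 4 from 15303372 to 15303921 had the highest H3K27me3 folds among coincident regions, 30.4 and 31.2, with H3K4me3 at 10.6 and 11.7. In H3K27me3 the local background of these 3 regions was 8.73, 19.5 and 7.91 times the floor. The median over coincident regions of IR64 was 2.12 times. In H3K4me3 it was 2.14, 2.52 and 1.00 times, against 1.06 times. The chromosome 7 region had an H3K27me3 summit coverage of 1798 and 777 reads. Positions are those of each cultivar's own list, 1-based, and the build is not given in the sources used here. The other regions among the 5 of IR64 that ranked highest in both marks lay on chromosome 1 from 34427918 to 34428352 (mean folds 23.0 ± 0.588 and 11.4 ± 0.424 for H3K27me3 and H3K4me3) and on chromosome 11 from 13824498 to 13825202 (18.1 ± 1.55 and 11.5 ± 1.10, SD, n = 2 each).

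In Azucena 4 of the 5 highest regions were the first or the last called on their chromosome. Chromosome 6 from 31188609 to 31189027 had H3K27me3 folds of 26.4 and 26.2 and H3K4me3 folds of 23.8 and 24.6. Chromosome 3 from 38424461 to 38424979 had 23.8 and 23.7, and 22.5 and 23.6, and its mean summits fell on the same base. These pairs held the last base called on their chromosome, which in H3K27me3 on chromosome 3 and in H3K4me3 on chromosome 6 was the end of the region. The right-hand end is defined by the last called base, so how far these regions lay from the true end is not known. Chromosome 2 from 32 to 561 (mean folds 23.6 ± 0.581 and 21.1 ± 0.796) and chromosome 8 from 13 to 446 (21.3 ± 1.38 and 17.8 ± 0.346) lay at the first bases instead. On chromosomes 6, 3, 2 and 8 the H3K27me3 local background was 5.41, 5.60, 6.29 and 1.08 times the floor. The H3K4me3 background was 4.73, 4.91, 5.07 and 1.00 times. The last of the 5, on chromosome 12 from 23685412 to 23686233, was internal and less enriched, at 13.7 ± 1.04 and 9.15 ± 0.0718 (SD, n = 2 each). Away from the ends, the next Azucena regions were on chromosome 11 from 12509706 to 12510613 (12.6 ± 0.965 and 11.7 ± 0.805), chromosome 12 from 11828238 to 11829118 (12.5 ± 0.0228 and 11.1 ± 0.0720) and chromosome 7 from 21324898 to 21325553 (12.5 ± 0.738 and 9.08 ± 0.459, SD, n = 2 each).

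Regions in which the marks ranked far apart were found as well. On chromosome 3 of IR64, from 2755899 to 2756937, H3K27me3 folds of 7.30 and 7.81 stood above 97.1% of the H3K27me3 regions while H3K4me3 folds of 2.58 and 2.36 stood above 5.94% of the H3K4me3 regions. On chromosome 7 of Azucena, from 20557885 to 20559453, H3K27me3 had folds of 7.04 and 7.90 and H3K4me3 of 2.36 and 2.1. The H3K4me3 domain was the narrower one in both, at 625 bp of 1039 bp and 786 bp of 1569 bp. The opposite was seen on chromosome 1 of Azucena from 28633987 to 28634580, where H3K27me3 folds were 2.24 and 2.40 and H3K4me3 folds 7.42 and 6.99, and on chromosome 4 of IR64 from 33574037 to 33575055, with 2.16 and 2.12 against 5.51 and 5.25. In all, 92 coincident regions of IR64 (3.35%) and 182 of Azucena (5.24%) paired an H3K27me3 fold in the top 10% with an H3K4me3 fold at or under the 50th percentile. The reverse pairing held in 62 (2.26%) and 41 (1.18%). Over all coincident regions the median percentile was 62.8 for H3K27me3 and 62.5 for H3K4me3 in IR64. In Azucena it was 65.3 and 52.6, so the marks already differed in rank over all coincident regions there.

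The overlap threshold of 50% did not fall in a gap. In IR64 256 pairs had an overlap of 50 to 55% of the longer region and 205 pairs just outside had 45 to 50%, and in Azucena there were 336 and 326. Median H3K27me3 folds were 4.52 inside and 4.55 outside in IR64, and 4.07 and 4.17 in Azucena. Median H3K4me3 folds were 3.69 on both sides in IR64, and 3.64 and 3.49 in Azucena. Regions on either side of the limit were alike in fold. On chromosome 11 of IR64, the H3K27me3 region from 8927178 to 8928632 was just inside at 50.03% of its length, and on chromosome 4 the region from 29821098 to 29822178 was just outside at 49.95%.

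The local background was recovered from the fold and p of each peak. At the median the H3K4me3 background was 1.06 times the floor around coincident regions of IR64 and 1.13 times in Azucena, against 1.53 and 1.55 times around H3K4me3 regions without H3K27me3. The H3K27me3 background was 2.12 and 1.75 times the floor, against 2.46 and 2.35 times at H3K27me3 regions without overlap. Coincident regions thus lay in a lower local background than other regions of either mark. They also lay farther from other regions of the same mark, as did the regions of partial overlap. The nearest other H3K4me3 region lay 5032 bp away in IR64, where H3K4me3 regions without H3K27me3 had their nearest one at 4226 bp. In Azucena the distances were 5124 and 4631 bp. The nearest other H3K27me3 region lay 10338 and 5863 bp away, against 7808 and 2769 bp for H3K27me3 regions far from H3K4me3. Regions of partial overlap had distances close to these, 5242 and 5125 bp for H3K4me3 and 10743 and 6070 bp for H3K27me3.

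A small class had a high background in both marks. A background of at least 5 times the floor in both, a limit chosen after the values were seen, was found in 62 coincident regions of IR64 (2.26%) and 51 of Azucena (1.47%). These had low folds, with medians of 2.49 for H3K27me3 and 2.58 for H3K4me3 in IR64 and 2.49 and 2.45 in Azucena, but high coverage. At their summits the median coverage was 288 and 222 reads in the IR64 H3K27me3 replicates and 191 and 188 reads in the H3K4me3 replicates, against 26, 22, 42 and 35 reads where neither background was high. Summits lay 52.0 and 50.0 bp apart at the median, against 149 and 131 bp. Not every region of the class had low folds. Azucena chromosome 2 from 32 to 561 was in it, with mean folds of 23.6 and 21.1. The folds of the marks followed each other in this class, with a Spearman rho of 0.84 over 62 regions and 0.88 over 51, against 0.23 and 0.28 in regions where neither background was high. A larger group was high in H3K27me3 alone, 376 regions of IR64 (13.7%) and 323 of Azucena (9.30%), with median H3K27me3 folds of 3.39 and 2.93, H3K4me3 folds of 3.95 and 3.77, and summits 122 and 179 bp apart.

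High background in H3K4me3 was rare at regions that did not overlap a reproducible H3K27me3 region. A peak of a single H3K27me3 replicate may still have been called there. Of the H3K4me3 regions with a background of at least 5 times the floor, 62 of 103 were coincident in IR64 (60.2%, Wilson interval 50.5 to 69.1) and 54 of 65 in Azucena (83.1%, 72.2 to 90.3), against 9.11% and 12.6% of all other H3K4me3 regions. Among H3K4me3 regions without H3K27me3 it was found in 19 of 25817 and 4 of 22113. H3K4me3 regions of partial overlap had it as often as coincident ones in IR64, in 22 of 980 (2.24%) against 62 of 2744 (2.26%), and less often in Azucena, in 7 of 1637 (0.428%, Wilson interval 0.207 to 0.880) against 54 of 3473 (1.55%, 1.19 to 2.02). In H3K27me3 a high background was common in every class, in 16.0% of coincident and 20.2% of far regions in IR64 and in 10.8% and 19.5% in Azucena. The part of this background in the overlap of the marks was not tested. Leaving out all regions of high background moved the share of coincident regions to 34.5% in IR64 and 25.1% in Azucena.

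**Figure D4:**
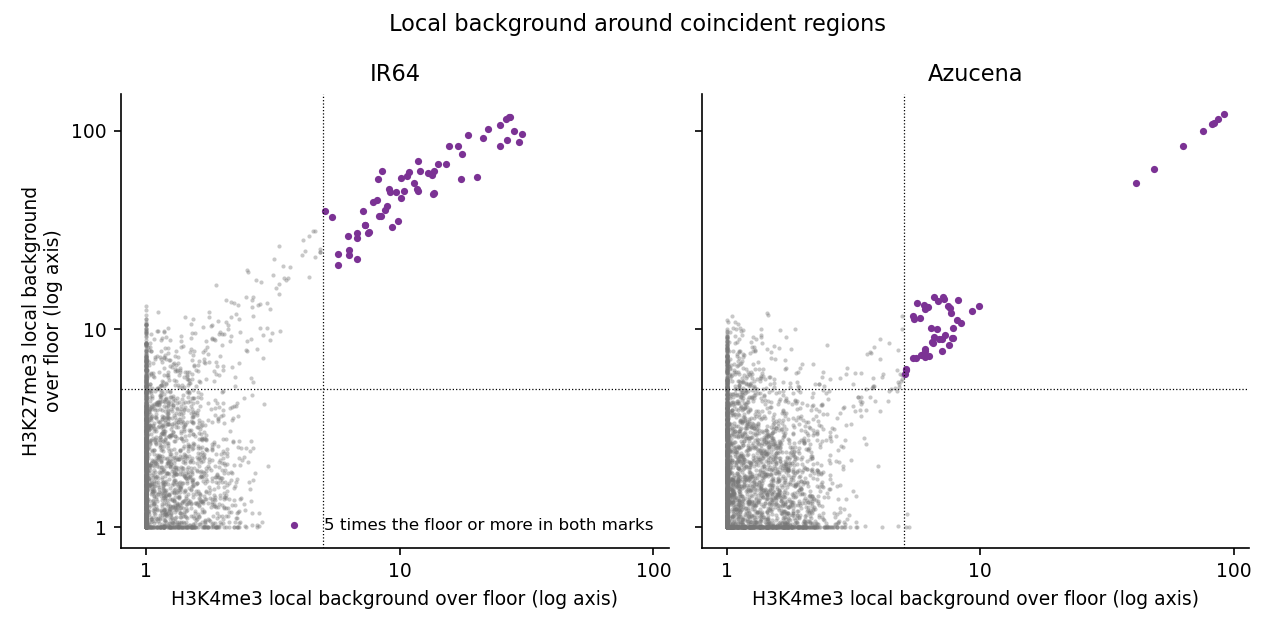
Local background around each coincident region as a multiple of the library floor, H3K27me3 (vertical) against H3K4me3 (horizontal), both on log axes and as means of 2 replicates, in IR64 (left) and Azucena (right). Dotted lines mark 5 times the floor, and purple points are the 62 IR64 and 51 Azucena regions over it in both marks; in Azucena 8 of them form a separate group above 40 times the floor.

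The regions of high background came in runs. Chained at gaps of up to 50000 bp, the 62 regions of IR64 fell into 18 runs on 8 chromosomes, and 58 of them had a neighbour of the same class. The 51 regions of Azucena fell into 17 runs on 9 chromosomes, and 47 had such a neighbour. The longest IR64 run held 10 regions at the right end of chromosome 6, from 32311149 to 32441808, where the background was 37.1 to 68.4 times the floor in H3K27me3 and 8.29 to 15.2 times in H3K4me3. The longest Azucena run also held 10, inside chromosome 1 from 34247058 to 34310184, at 7.35 to 14.2 and 6.26 to 8.20 times the floor. This run lay in the Azucena window of 500000 bp with most coincident regions, from 34200001 to 34700000, where 23 of 37 H3K27me3 regions were coincident.

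The starts of chromosomes 9 and 10 held such runs in both cultivars. In IR64 7 regions lay within the first 70000 bp of chromosome 9 and 7 within those of chromosome 10, and in Azucena 4 and 4. All 8 Azucena regions of at least 40 times the floor in both marks were among these, with 54.8 to 121 times in H3K27me3 and 40.9 to 91.5 times in H3K4me3. On chromosome 9 of IR64, the H3K27me3 summits at 32266, 41201.5, 50110 and 59050.5 (means of the replicates) followed each other at distances of 8935.5, 8908.5 and 8940.5 bp. The first of them lay 17842.5 bp beyond the summit before it. H3K4me3 summits at these 4 places were 1.00, 14.0, 23.0 and 10.5 bp from those of H3K27me3. The short arm of rice chromosome 9 is known to carry ribosomal RNA genes, and whether these positions do so in the assembly used was not analysed here.

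The longest shared stretches also had a raised local background. In IR64 the 3 longest overlaps were 3076 bp on chromosome 4 from 14034466 to 14037679, 2949 bp on chromosome 5 from 21984145 to 21987093 and 2672 bp on chromosome 1 from 4729331 to 4732024. Their H3K27me3 backgrounds were 70.1, 21.1 and 83.9 times the floor and their H3K4me3 backgrounds 11.8, 5.73 and 16.9 times. In Azucena they were 3432 bp on chromosome 12 from 8135719 to 8139158, 3426 bp on chromosome 4 from 31521103 to 31524567 and 2969 bp on chromosome 6 from 17111590 to 17114735. Here the backgrounds were lower, at 7.44, 6.02 and 4.76 times the floor in H3K27me3 and 3.57, 3.20 and 2.45 times in H3K4me3. The longest Azucena region had folds of 4.90 and 5.57 in H3K27me3 and 4.72 and 4.85 in H3K4me3, with summits 35.5 bp apart.

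Coincident regions lay on all 12 chromosomes, at different shares. In IR64 chromosome 10 had the highest share of its H3K27me3 regions coincident, 222 of 530 (41.9%, Wilson interval 37.8 to 46.1), followed by chromosome 11 with 299 of 785 (38.1%, 34.8 to 41.5). Chromosome 3 had the lowest, 238 of 813 (29.3%, 26.2 to 32.5). In Azucena chromosome 10 was again highest, with 250 of 932 (26.8%, 24.1 to 29.8), and chromosome 4 was lowest, with 257 of 1353 (19.0%, 17.0 to 21.2). The Azucena intervals of chromosome 10 overlapped those of most other chromosomes. Chromosome 11 was near the Azucena average, at 23.3% (21 to 25.8).

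Counted per H3K4me3 region, the cultivars ordered the chromosomes more alike. Chromosomes 11 and 10 had the highest shares of H3K4me3 regions coincident in both, 15.4% and 12.9% in IR64 and 16.2% and 16.5% in Azucena. Chromosome 3 had the lowest in both, 6.56% and 9.93%. Densities ranged from 5.92 coincident regions per Mb on chromosome 12 to 9.41 on chromosome 11 in IR64, and from 7.52 on chromosome 4 to 10.6 on chromosome 1 in Azucena. In IR64 the window of 500000 bp with most coincident regions was on chromosome 11, from 31300001 to 31800000, with 23 of 37 H3K27me3 regions. The 23 had median folds of 4.87 for H3K27me3 and 3.83 for H3K4me3, and none had a high background in both marks, unlike 10 of the 23 in the Azucena window.

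**Figure D5:**
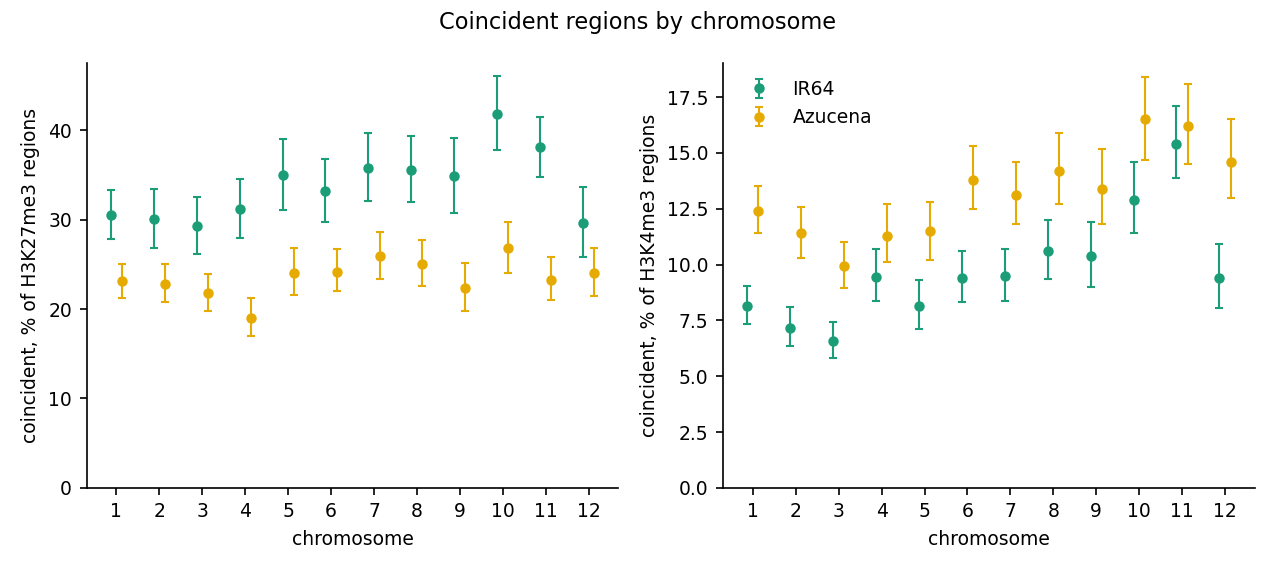
Coincident regions on each chromosome as a percentage of the H3K27me3 regions (left) and of the H3K4me3 regions (right) there, in IR64 (green) and Azucena (yellow); bars are 95% Wilson intervals, which cover counting error only. Chromosome 10 is highest on the left in both cultivars (41.9% and 26.8%), and chromosome 3 is lowest on the right (6.56% and 9.93%).

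The share of H3K27me3 regions that were coincident was higher where H3K4me3 was sparse, while their number was lowest there. Bins of 1000000 bp were ordered by their number of H3K4me3 regions into 5 classes. In IR64 the share of H3K27me3 regions that were coincident was 40.4% (Wilson interval 37.3 to 43.6) in the sparsest class and 37.8%, 31.0%, 29.7% and 30.2% (28.1 to 32.3) in the following ones. In Azucena it was 25.8% (23.7 to 28.1), 27.6%, 22.5%, 21.3% and 21.8% (20.4 to 23.2). Per bin, however, the sparsest class held the fewest coincident regions, 4.86 against 6.97 to 7.79 in the others in IR64 and 5.23 against 8.92 to 10.5 in Azucena. The share was higher in the 2 sparser than in the 3 denser classes in both cultivars. Windows of 5 Mb with the fewest H3K4me3 regions, 1 per chromosome, held 9.62% of the coincident regions of IR64 against 6.80% of the H3K27me3 regions without overlap, and 10.4% against 7.57% in Azucena. These windows were found from the peaks, and centromere positions were not used here. Bins and chromosomes are not replicates, so no test was made on these shares.

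Close to the first and last called bases of the chromosomes most H3K27me3 regions were coincident. Within 1000 bp of a chromosome end, 5 of 6 H3K27me3 regions were coincident in IR64 and 8 of 9 in Azucena. Within 10000 bp they were 20 of 26 (76.9%, Wilson interval 57.9 to 89.0) and 13 of 19 (68.4%, 46.0 to 84.6). These included regions of the high-background runs described above, at the starts of chromosomes 9 and 10 in both cultivars. In IR64 they also included the run at the right end of chromosome 6. The last called peak of each chromosome counts as lying at the right-hand end by definition, and distances to that end are lower bounds. Over the outer 2 Mb the contrast was small, with 36.0% of H3K27me3 regions coincident in IR64 (33.4 to 38.6) and 23.6% in Azucena (21.9 to 25.4), set against 33.4% and 23.4% over whole chromosomes. With the regions within 10000 bp of an end left out, the shares over whole chromosomes were 33.2% and 23.3%. The folds of the end regions were spread from the lower to the upper tail of the plot of both folds.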

How the data were processed

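The 8 meiocyte CUT&Tag libraries of 20 samples were used, in groups of 2 taken from the sample titles. The 4 flag-leaf CUT&Tag samples and the 8 bisulfite libraries were not analysed here. The members and lists were chosen with earlier results of these data known.

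The deposited lists held 1 set of peaks per library. The authors gave each peak a score (10 times the −log10 q, rounded down, not used), a fold enrichment (a ratio of summit coverage to local background), and 2 columns of −log10 values, 1 for the p-value and 1 for the q-value. A table of the authors gave aligned reads, in other units of 1000000 reads, and peak counts. The submitters' processing notes name MACS2 2.1.0, Bowtie2, Bismark 0.22.3 and fastp 0.20.1, with no role stated. The build, a control library and the duplicate filter are not given in the sources used here.

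Peaks were merged at an overlap of at least 1 bp (touching peaks were kept apart), and contigs were left out. A region's fold is the mean over its replicates of the highest peak, and a percentile is its rank among all reproducible regions of that mark and cultivar. Summit coverage and local background were recovered by solving the fold and the p together, taking the p as a Poisson tail and the fold as (coverage + 1)/(background + 1). Coverage came out whole, within 0.05, in 100% of peaks of each library. The lowest recovered background of a library was its floor. Chromosome length was the last called base, a lower bound. The overlap and inversion steps were tested on simulated data.

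Cultivars were compared over libraries by two-sided exact permutation tests of 2 against 2 (6 relabellings), with Benjamini-Hochberg adjustment over 6 measures. Within a cultivar, what the rule fixes (overlap, widths, folds between classes) was described and not tested. The fold and width ratios were tested only between cultivars. Named regions were the 5 highest by the lower of the marks' fold percentiles, the 5 highest over 10000 bp from both ends, the 3 longest overlaps, the 3 with the largest rank difference in each direction, the 3 pairs nearest the threshold on each side and the fullest window of 500000 bp; some are given as counts only. The regions at the starts of chromosomes 9 and 10 were chosen after their values were seen. The alternatives were other overlap, q and fold limits, another rule for shared replicate peaks, chromosome ends left out, 1 replicate left out, summits of a single replicate, a replicate block, and, chosen after seeing the data, equal numbers of regions and regions of high local background left out. Python 3.11.15, NumPy 2.4.6, pandas 2.3.3, SciPy 1.17.1 and Matplotlib 3.10.9 were used.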

Additional observations from a re-analysis of the deposited data

Results flagged for a closer look

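The unplaced contigs of the Azucena assembly, which were outside every comparison above, also held coincident regions. Of 34 reproducible H3K27me3 regions on contigs, 18 were coincident with 1 of 22 H3K4me3 regions (52.9%, 95% Wilson interval 36.7 to 68.5). These 18 were flagged for exceeding 3, the limit that a count of 0 allows, which says nothing about the share on the chromosomes. They lay on 8 contigs. Their summits were 34.0 bp apart at the median, with median folds of 5.07 for H3K27me3 and 4.78 for H3K4me3 and median widths of 522 and 570 bp. On the chromosomes of Azucena the share was 23.4%, and the difference was not tested.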

How the results depend on the processing

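The 20 results were recomputed under 15 other settings, 250 values in all, of which 25 reversed direction and 225 did not. Of the latter, 133 kept the sign of a cultivar difference or stayed within the spread between replicates. The other 92 moved beyond that spread. Shares and summit distances have no direction to reverse and were counted as not reversed. The replicate block repeats the cultivar differences unchanged. The cause was not tested in any case. The fold ratio and the width ratio below are values at coincident regions over values at regions without the other mark, and the end ratio is the share of coincident regions in the outer 2 Mb over that of H3K27me3 regions without overlap (1.18 in IR64, 1.02 in Azucena). H3K27me3 fold and width ratios stayed above 1 in every setting.

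With overlaps of 30% and 80%, the share of coincident regions was 42.2% and 13.5% in IR64 and 30.9% and 8.88% in Azucena. The summit distance was 164 and 122 bp, and 149 and 111 bp. H3K27me3 fold ratios were 1.13 and 1.17 in IR64 and 1.21 and 1.25 in Azucena. H3K4me3 fold ratios were 1.16 at 80% in IR64, and 0.985 and 1.08 in Azucena. H3K4me3 width ratios were 0.986 at 80% in IR64, and 0.970 and 1.04 in Azucena. At 80% the IR64 end ratio was 1.32 and the cultivar difference of the H3K4me3 width ratio was -0.0362.

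With a −log10 q of at least 5, the Azucena share was 21.3%, the H3K27me3 fold ratios were 1.12 and 1.20, the end ratios 1.23 and 0.985, and the Azucena values 1.02 for H3K4me3 fold, 1.20 for H3K27me3 width and 1.01 for H3K4me3 width. The cultivar difference of the H3K4me3 width ratio was -0.0238.

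With a fold of at least 4, shares were 18.7% and 14.3%, distances 124 and 113 bp, H3K27me3 fold ratios 1.07 and 1.08, H3K4me3 fold ratios 1.04 and 0.999, and end ratios 1.04 and 0.958. Azucena width ratios were 1.04 for H3K27me3 and 1.03 for H3K4me3. The cultivar differences were 0.772 for the H3K4me3 share, 0.000886 for the H3K27me3 fold ratio, and 0.0783 and -0.0699 for the H3K27me3 and H3K4me3 width ratios.

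With replicate peaks asked to overlap by 50% of both lengths, the IR64 distance was 130 bp and its H3K27me3 fold ratio 1.16, the Azucena share was 22.1% and its H3K4me3 fold ratio 1.01, and the cultivar difference of the H3K4me3 width ratio was -0.0346. Without the chromosome ends the Azucena end ratio was 1.00. Summits of replicate 1 or 2 gave distances of 172 and 176 bp in IR64 and 161 and 154 bp in Azucena.

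With equal numbers of regions, the H3K27me3 fold ratios were 1.16 and 1.09 and the end ratios 1.09 and 1.08. Azucena had a share of 30.1%, an H3K4me3 fold ratio of 1.05, and width ratios of 1.10 for H3K27me3 and 1.04 for H3K4me3. The cultivar differences were 0.0863 for the H3K27me3 fold ratio, and 0.158 and -0.0747 for the width ratios. For the shares of each library's full peak list they were 9.79 for H3K27me3 and -0.273 for H3K4me3. Without regions of high local background, the IR64 distance was 149 bp, the H3K27me3 fold ratios 1.11 and 1.18, the end ratios 1.11 and 1.04, and the Azucena share 25.1% with an H3K4me3 fold ratio of 1.02. Both settings were chosen after seeing the data.

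Leaving out 1 replicate of a mark in both cultivars gave shares of 22.1% to 33.1% in IR64 and 19.8% to 22.4% in Azucena, and distances of 147 to 153 bp and 141 to 147 bp. H3K27me3 fold ratios were 1.14 to 1.22 and 1.21 to 1.30, and H3K4me3 fold ratios 1.08 to 1.19 and 1.00 to 1.07. H3K27me3 width ratios were 1.17 to 1.80 and 1.23 to 1.61, H3K4me3 width ratios 0.868 to 1.13 and 0.945 to 1.10, and end ratios 1.18 to 1.25 and 1.03 to 1.07. H3K4me3 width ratios rose above 1 without either H3K4me3 replicate (1.13 and 1.12 in IR64, 1.09 and 1.10 in Azucena). Cultivar differences of the width ratios ranged from -0.0608 to 0.266 for H3K27me3 and from -0.0352 to 0.0306 for H3K4me3, reversing to 0.266 without H3K27me3 replicate 2, and to -0.0352 and -0.0142 without H3K27me3 replicate 1 or 2. Where a mark had 1 library per cultivar left, the value has no test.

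With a replicate block the cultivar differences were the same (4.73, -3.34, -0.0669, 0.107, -0.0510 and 0.00825), with exact permutation p 0.5 for shares and fold ratios, the smallest that 4 relabellings allow, and 1.00 for width ratios. Replicate differences in log2 fold did not go together between the marks (Pearson r -0.04 in IR64 and 0.02 in Azucena across regions), so the numbers were not taken as pairs. Low coverage of IR64 H3K27me3, 2 libraries per group and builds and control libraries that are not given in the sources used here limit all comparisons. Absence from a list does not show that a mark was absent.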
